A study of Mus musculus with 53 samples.

Results

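Car1, Car4, Slc26a3, Slc9a3, Aqp8, Slc5a8, Slc16a1, Slc37a2, S100g and Scnn1a are 10 genes that colonocytes use to absorb salt, water, short-chain fatty acids and calcium or to handle bicarbonate and sugar phosphate. They were chosen by role, with their levels in mutant intestine against wild-type (WT) intestine already known, S100g and Slc37a2 among the large decreases. All 10 were found among the 55421 gene identifiers counted. Because the contrasts against WT were part of the choice, those contrasts are given as levels and log2 fold changes with standard errors, without a p-value, and a count of these genes there says nothing beyond the choice. Comparisons that did not involve the WT of the same tissue carry adjusted p-values. They share libraries with the contrasts against WT, and colon against small intestine concerns genes chosen as colonocyte genes. Their p-values for the 10 genes are therefore not independent of the choice.

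RNA was sequenced from whole tissue of 53 mice in 11 groups, 29 libraries from the proximal colon and 24 from the small intestine. Every mouse carried VilCreER, a Cre recombinase that the villin promoter confines to the intestinal epithelium and that tamoxifen switches on, so stromal, muscle and immune cells in the same sample kept the alleles intact. BA mice (Braf V600E/+ Alk5 fl/fl) gained an activated BRAF kinase and lost the TGF-β receptor ALK5, encoded by Tgfbr1, while A mice (Alk5 fl/fl) lost the receptor alone. The colon groups were BA tumours (4 libraries) and WT colon (3), and tissue taken at day 30 (d30) after induction from WT (4), A (4), BA (5), antibiotic-treated BA (5) and sulindac-treated A mice (4). The antibiotics were ampicillin at 1 g/L, neomycin trisulphate at 1 g/L, vancomycin at 500 mg/L and metronidazole at 1 g/L in the drinking water. Sulindac, a cyclooxygenase inhibitor, was given at 0.4 g/L for 14 days. The study started it on the day after tamoxifen and returned the mice to ordinary water before tissue was taken at d30. The small intestinal groups were Apc fl/fl (10) and WT (6) at day 4, and Apc fl/+ tumours (5) with their WT small intestine (3); Apc is the tumour suppressor that restrains Wnt signalling. Those last 8 libraries came from an inbred C57BL6/J background (N9/99.8%) and the other 45 from a mixed C57BL/6J N6 background, all from mice induced as adults.

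Surface colonocytes take up sodium and chloride through a coupled pair of exchangers, NHE3 (Slc9a3) for sodium against protons and DRA (Slc26a3) for chloride against bicarbonate, and carbonic anhydrases supply both with protons and bicarbonate. Water follows through aquaporins, butyrate and other short-chain fatty acids made by the microbiota enter through SMCT1 (Slc5a8) and MCT1 (Slc16a1), and the epithelial sodium channel ENaC recovers the last of the sodium under aldosterone. Most of these proteins belong to mature cells near the luminal surface and are sparse in proliferating crypt cells.

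The sequences shown are promoters of 3 genes with wide differences between groups in these data, S100g and Slc37a2 between BA and WT colon at d30 and Aqp8 between colon and small intestine. They were read from RefSeq windows of the GRCm38.p6 build that run from 250 bases before to 50 bases after a gene's start, and 8 of the 10 genes had a window, Car1 and Scnn1a being the exceptions. Car1 differed more widely between colon and small intestine than Aqp8 and is not shown, having no window. Each is printed 5′ to 3′ on the gene's strand, with motif matches in capitals.
S100g (chrX:162964594-162964849, minus strand): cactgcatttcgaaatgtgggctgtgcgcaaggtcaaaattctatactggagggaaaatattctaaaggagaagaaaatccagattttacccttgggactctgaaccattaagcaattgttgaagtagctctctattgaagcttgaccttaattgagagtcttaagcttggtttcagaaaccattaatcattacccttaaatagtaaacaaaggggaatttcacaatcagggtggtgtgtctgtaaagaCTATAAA
Slc37a2 (chr9:37255739-37255988, minus strand): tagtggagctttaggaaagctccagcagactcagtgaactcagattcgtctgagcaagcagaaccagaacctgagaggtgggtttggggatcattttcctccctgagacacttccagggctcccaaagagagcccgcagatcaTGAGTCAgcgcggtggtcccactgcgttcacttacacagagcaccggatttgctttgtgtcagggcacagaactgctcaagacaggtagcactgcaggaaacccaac
Aqp8 (chr7:123462044-123462299, plus strand): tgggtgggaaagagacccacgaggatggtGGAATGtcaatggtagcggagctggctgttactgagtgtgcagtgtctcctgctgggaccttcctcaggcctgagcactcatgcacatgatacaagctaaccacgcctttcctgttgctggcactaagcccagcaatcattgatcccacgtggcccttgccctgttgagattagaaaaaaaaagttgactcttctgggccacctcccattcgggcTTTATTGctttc
The capitals in S100g mark CTATAAA, a reverse-strand match to the CDX letters TTTATNG that overlaps the TATA box letters TATAAA. In Slc37a2 they mark TGAGTCA, a match to the AP-1 letters TGANTCA. In Aqp8 they mark GGAATG, a reverse-strand match to the TEAD letters CATTCC, and TTTATTG, a CDX match. Searched on both strands, the CDX letters were in 3 of the 8 windows (Aqp8, Car4 and S100g) against 10.9% of all 32851 windows, and the TATA box letters were in 3 (Car4, Slc26a3 and S100g) against 13.6%. AP-1 letters were in 1 window against 7.81%, TEAD letters in 1 against 14.7%, and the HNF4 letters CAAAGTCC in 0 against 1.42%. A match describes letters in the window and does not show that a factor binds there.

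Library totals ran from 516985 reads (Apc fl/fl library 1) to 32824795 reads assigned to genes, and levels are given as CPM, the count of a gene scaled to a common library size by the normalisation of edgeR. Library 2 of the Apc fl/+ tumours went against its small intestinal label: Hoxa10, a homeobox gene of the posterior body axis, was at 46.4 CPM there and at 0.133 to 1.501 CPM in the other 4, and Sis, the small intestinal brush-border disaccharidase, was at 6.17 CPM against 424 to 1190. Hoxd10, another posterior homeobox gene, was at 0.186 CPM in that library, against 4.40 to 9.11 CPM in WT colon. Library 2 of the WT colon group had 0.705 CPM of Fabp6, a bile acid binding protein of the ileum, against 44.7 and 43.9 CPM in the other libraries. Where leaving out either library changed a call of 1 of the 10 genes or moved its fold by over 1.5 times, the value without it is given. Counts over whole genes in whole tissue do not check the genotypes: Tgfbr1 was at 41.9 to 58.2 CPM in BA and 34.7 to 65.2 CPM in WT colon at d30, Apc was at 36.5 to 147 CPM in Apc fl/fl and 64.4 to 111 CPM in WT at day 4, and the Braf change is a point mutation. The pseudogene Gm13394 was over 10 CPM in every A and BA d30 library and in 0 of 4 WT d30 libraries, so this difference and the d30 genotypes cannot be told apart. All samples were whole tissue, so fewer cells of a type and less RNA per cell cannot be told apart either.

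In WT colon at d30 the genes spanned a wide range of levels per transcript length. Car1, the cytosolic carbonic anhydrase of the colon, stood at 17699 ± 2156 CPM per kilobase (SD, n = 4), ranked 1 of 55240 genes on that scale, and took up 2.26% of all counts. Aqp8 followed at 684 CPM per kilobase, and Slc37a2 (224), Car4 (195), Slc26a3 (181) and Slc16a1 (172) formed a middle group whose ranges overlapped. S100g (66.1), Slc5a8 (31.9), Slc9a3 (28.5) and Scnn1a (16.9 CPM per kilobase) were lowest. Car1 still ranked 1 in BA colon at d30, 4 in the WT colon of the tumour series and 16 in BA tumours.

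**Figure D1:**
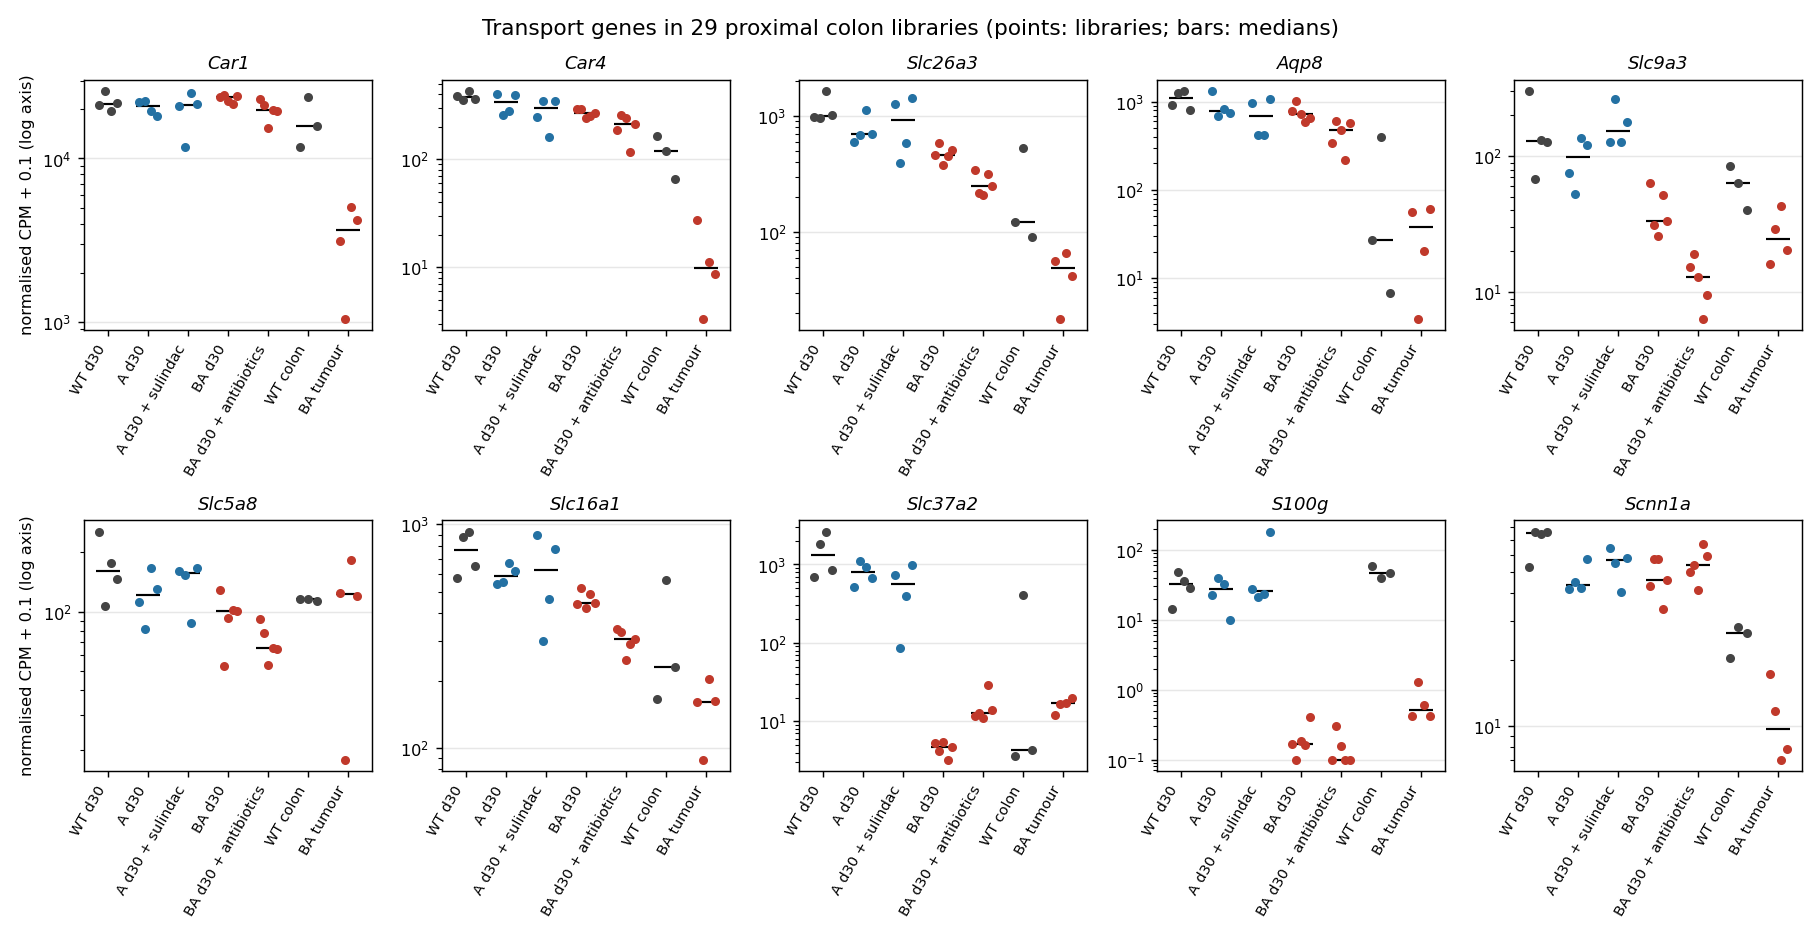
Levels of the 10 genes in each proximal colon library, as normalised CPM plus 0.1 on log axes with a separate scale per gene; each point is 1 library and each bar the group median. Slc37a2 and S100g of the BA and antibiotic-treated BA libraries at d30 lie below every WT and A library of d30. Libraries 1 and 3 of the WT colon of the tumour series hold Slc37a2 at 3.49 and 4.26 CPM, as low as BA at d30. Car1 lies in 1 band in all d30 groups.

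At d30, 9 of the 10 genes were called lower in BA than in WT colon and 0 higher, among 17471 genes tested of which 29.3% were called lower and 25.8% higher. The exception was Car1. Their median log2 fold change was -0.79, against -0.026 for all genes tested. In A colon 0 of 10 were called in edgeR's quasi-likelihood test, where 0.0452% of genes were called lower and 0.096% higher. All 10 genes nevertheless had negative log2 fold changes in A against WT, with a median of -0.41 against 0.0085 for all genes tested. At an unadjusted p under 0.05, 2 of them and 1717 of all genes differed there, and DESeq2 called 0 of them and 136 genes. The BA and A contrasts share their WT libraries, so BA was also compared directly with A: 5 of 10 genes (Slc26a3, Slc9a3, Slc16a1, Slc37a2 and S100g) were lower in BA and 0 higher by edgeR, with 23.6% of genes called lower and 21.7% higher.

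Car1 (ENSMUSG00000027556, chromosome 3, 14766216 to 14808368, minus strand in GRCm38) did not pass the threshold of edgeR's quasi-likelihood test in any d30 comparison, while DESeq2 called it higher in BA than in A (0.22, adjusted p = 0.0276) and lower under antibiotics. It was at 21146, 25833, 19488 and 21887 CPM in the 4 WT libraries and at 23896, 24452, 22418, 21696 and 24129.7 CPM in the 5 BA libraries. The A libraries held 22158, 22443, 19563 and 18193 CPM. The groups overlapped, with log2 fold changes of 0.065 (standard error 0.086) for BA against WT and 0.20 (standard error 0.12, adjusted p = 0.212) for BA against A. Car1 shares 18.0% of its 36-base words with the gene Gm5843, whose reads came to between 1.02% and 2.01% of those of Car1 in the d30 groups. How reads common to both were assigned is not given in the sources used here.

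Car4 (ENSMUSG00000000805, chromosome 11, 84957786 to 84966044, plus strand) encodes the membrane-anchored carbonic anhydrase on the luminal face of colonocytes. It was at 385, 355, 428 and 366 CPM in WT and at 295, 291, 241, 249.9 and 268 CPM in BA. Every BA library lay below every WT library, and the log2 fold change was -0.52 (standard error 0.083). In A it was at 404, 255, 279 and 395 CPM, overlapping both groups, and BA against A gave -0.29 (standard error 0.14, adjusted p = 0.118), which did not pass the threshold.

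Slc26a3 (ENSMUSG00000001225, chromosome 12, 31390871 to 31473917, plus strand) encodes the chloride-bicarbonate exchanger. It was at 985, 959, 1631 and 1025 CPM in WT, at 594, 685, 1131 and 704 CPM in A and at 460.1, 585, 381, 448 and 508 CPM in BA. All 5 BA libraries were below all WT and all A libraries. The log2 fold change was -1.29 (standard error 0.17) against WT, and against A it fell by 0.70 on the log2 scale (standard error 0.19, adjusted p = 0.0126) in edgeR's quasi-likelihood test. The sodium-proton exchanger gene Slc9a3 (ENSMUSG00000036123, chromosome 13, 74121457 to 74169442, plus strand) varied more between libraries. It was at 302, 67.6, 131 and 127 CPM in WT, 75.2, 52.7, 136 and 122 CPM in A and 63.4, 31.4, 25.7, 52.0 and 33.6 CPM in BA. BA lay below every WT library but overlapped A in 1 library, with -1.93 (standard error 0.38) against WT and -1.22 (standard error 0.32, adjusted p = 0.00912) against A.

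Aqp8 (ENSMUSG00000030762, chromosome 7, 123462291 to 123468004, plus strand) encodes the apical water channel of surface colonocytes. It was at 917, 1276, 1320.4 and 812 CPM in WT and at 798, 1018, 728, 587 and 654 CPM in BA. The ranges overlapped. The log2 fold change of -0.53 (standard error 0.18) passed the threshold with all libraries and no longer did without BA library 4 or 5 or without WT library 2 or 3 (-0.42 to -0.48). In A it was at 1326, 687, 822 and 741 CPM, and BA against A gave -0.22 (standard error 0.20, adjusted p = 0.407).

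Slc5a8 (ENSMUSG00000020062, chromosome 10, 88885992 to 88929515, plus strand) encodes the sodium-coupled importer of butyrate. It was at 253, 107, 176 and 145 CPM in WT and at 128, 52.8, 92.4, 102 and 100.2 CPM in BA, with 1 BA library inside the WT range. Its log2 fold change was -0.85 (standard error 0.26) against WT and -0.35 (standard error 0.25, adjusted p = 0.263) against A, the latter not past the threshold. Slc16a1 (ENSMUSG00000032902, chromosome 3, 104638668 to 104658462, plus strand) encodes the proton-coupled monocarboxylate transporter. It was at 578, 878, 927 and 654 CPM in WT, 539, 550.5, 673 and 621 CPM in A and 440.0, 520.5, 422, 487 and 446 CPM in BA. BA lay below every library of both other groups. The log2 fold change was -0.73 (standard error 0.14) against WT and -0.35 (standard error 0.11, adjusted p = 0.0247) against A, and the latter call was lost when any 1 of 5 libraries was left out (A 3 or 4, BA 1, 3 or 5).

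Slc37a2 (ENSMUSG00000032122, chromosome 9, 37227585 to 37255738, minus strand), which encodes a sugar phosphate exchanger of the endoplasmic reticulum, and S100g showed the widest gaps. It was at 685, 1798, 2608 and 858 CPM in WT and at 519.6, 1119, 933 and 678 CPM in A. In BA it was at 5.12, 4.06, 5.38, 3.15 and 4.66 CPM. Every BA library lay below 6 CPM and every WT and untreated A library of d30 above 500 CPM. In the WT colon of the tumour series Slc37a2 was at 3.49, 409 and 4.26 CPM. Its libraries 1 and 3 were thus as low as BA at d30, and levels this low were not particular to BA. The mean of Slc37a2 at d30 was 1487 ± 893 CPM in WT (SD, n = 4) and 4.48 ± 0.893 CPM in BA (SD, n = 5). BA differed by -8.40 (standard error 0.45) on the log2 scale from WT. It differed by -7.50 (standard error 0.28, adjusted p = 2.59e-08) from A in edgeR's quasi-likelihood test. The antisense gene Gm48081 covers 241 exonic bases of Slc37a2 and was at 0.282 CPM or less in all colon libraries. How reads from the overlap were assigned is not given in the sources used here.

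S100g (ENSMUSG00000040808, chromosome X, 162961992 to 162964599, minus strand) encodes calbindin D9k, which carries calcium across the cell under control of the vitamin D receptor. It was at 14.0, 48.7, 35.6 and 28.5 CPM in WT and at 22.9, 40.0, 33.0 and 9.70 CPM in A. BA libraries held 1, 0, 1, 1 and 5 reads (0.0674, 0, 0.0828, 0.0619 and 0.303 CPM). Over the group that was 0.0961 CPM, close to the level that 3 reads give in 1 library (0.173 CPM), so a fitted fold depends on the small count the model adds. The summed reads gave a level 338 times higher in WT (95% counting interval 171 to 783) and 284 times higher in A (144 to 660). These intervals and floors cover counting error only. BA against A passed the threshold in edgeR's quasi-likelihood test (adjusted p = 3.24e-06).

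Scnn1a (ENSMUSG00000030340, chromosome 6, 125320659 to 125344943, plus strand) encodes the alpha subunit of ENaC. It was at 52.8, 75.7, 74.8 and 76.2 CPM in WT, 41.9, 45.0, 42.4 and 57.4 CPM in A and 43.2, 57.5, 57.4, 34.0 and 45.7 CPM in BA. WT library 1 lay inside the ranges of A and BA, so the groups overlapped. The log2 fold change was -0.57 (standard error 0.16) for BA against WT, and BA against A gave 0.040 (standard error 0.16, adjusted p = 0.862), so that the difference from A lay within the spread between libraries.

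The cell type markers moved as well at d30. Of 10 epithelial markers 8 were higher in BA than in WT, with a summed level of 19250 to 22800 CPM against 9822 to 11910 CPM. Of 6 smooth muscle markers 4 were lower (939 to 3925 against 4878 to 5623 CPM), as were 5 of 6 fibroblast markers (997 to 1255 against 1323 to 1655 CPM). The 4 colon identity markers reported here summed to 572 to 639.7 CPM against 86.8 to 321 CPM, with 2 of 3 tested lower and 1 higher. Of 6 small intestinal enterocyte markers tested 4 were higher, with sums of 1511 to 2174 CPM in BA, 2290 to 3584 CPM in antibiotic-treated BA and 539 to 1322 CPM in WT, and none of the 3 ranges overlapped. In untreated A the enterocyte sum was 1091 to 2452 CPM, which overlapped all 3 of these ranges. The epithelial sum ran opposite to the 9 genes called lower, and the part of tissue composition in these levels was not tested.

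**Figure D2:**
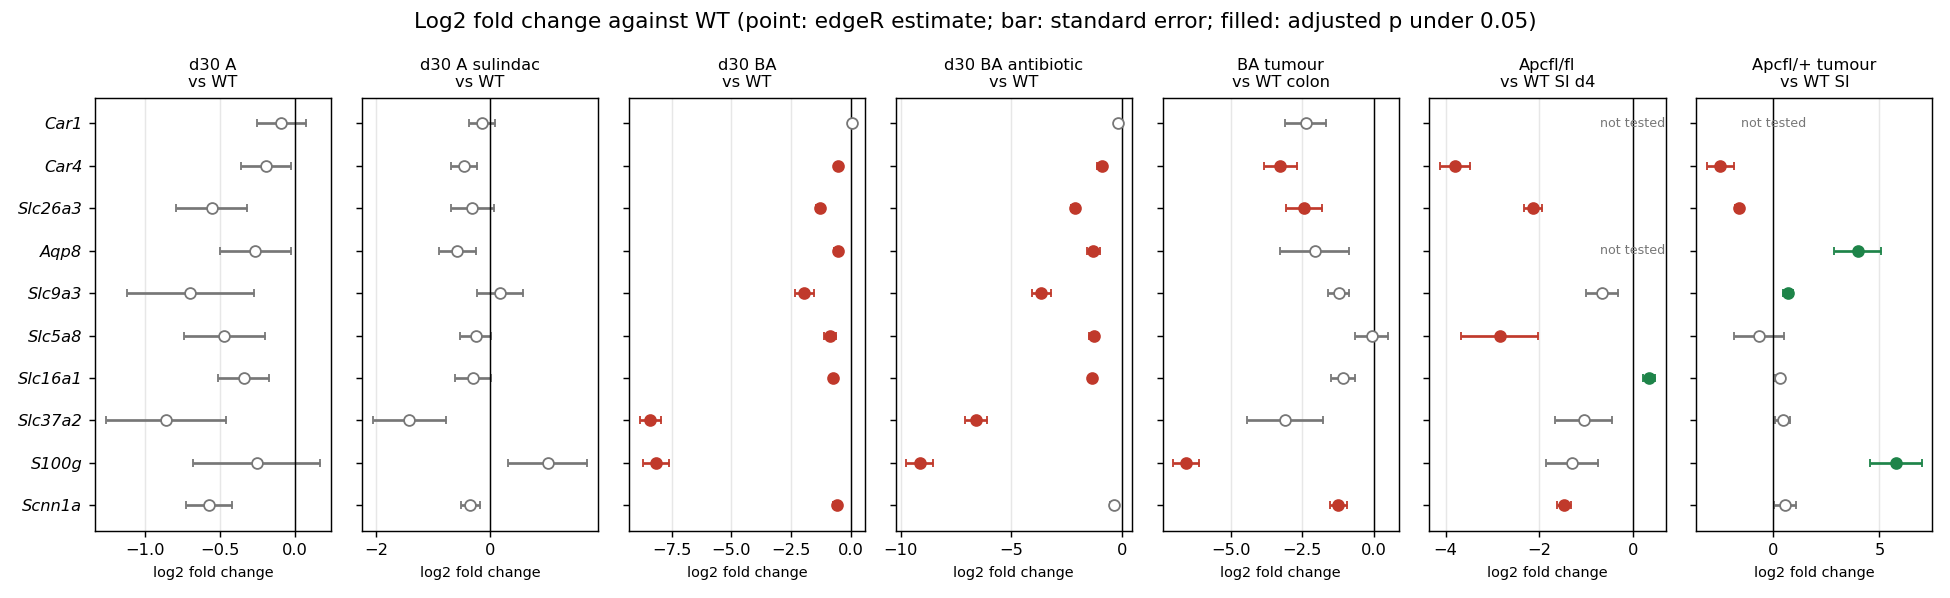
Log2 fold changes of the 10 genes against the WT group of the same tissue in 7 comparisons, each panel with its own horizontal scale; points are edgeR estimates, bars are 1 standard error, and filled points passed an adjusted p of 0.05. In BA at d30 every gene but Car1 is a filled point left of 0, whereas no point is filled in the A panels.

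Antibiotic-treated BA mice were compared with untreated BA mice at d30 to ask whether the microbiota bears on BA tissue. Of 9 genes that could be tested, Slc26a3, Slc9a3 and Slc16a1 were lower under antibiotics and Slc37a2 was higher, with 8.5% of 16680 genes called lower and 4.53% higher. The untreated BA libraries are the same as in the contrasts above.

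Of the 9, Slc9a3 showed the largest decrease under antibiotics, to 15.1, 19.1, 13.0, 6.28 and 9.51 CPM, below all untreated BA libraries (25.7 to 63.4 CPM). Its log2 fold change was -1.71 (standard error 0.32, adjusted p = 0.00594). Slc26a3 was at 339.9, 219, 208, 315 and 249 CPM, again below all untreated BA libraries, with -0.84 (standard error 0.14, adjusted p = 0.00395). Slc16a1 was at 339, 329, 248, 292 and 308 CPM and gave -0.61 (standard error 0.080, adjusted p = 0.00105). The calls of Slc26a3 and Slc16a1 did not pass the threshold when all d30 groups shared 1 fit (adjusted p = 0.0726 and 0.0819 in edgeR).

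Slc37a2, printed above for its promoter, rose under antibiotics, to 11.6, 12.7, 10.8, 28.7 and 13.9 CPM, each above all untreated BA libraries (3.15 to 5.38 CPM). The log2 fold change was 1.80 (standard error 0.28, adjusted p = 0.00224) by edgeR's quasi-likelihood test. All 5 values were still below the lowest WT library of d30, at 685 CPM. S100g was too low to test, with 0, 3, 1, 0 and 0 reads, and its summed level was 697 times higher in WT (95% counting interval 272 to 2560).

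Aqp8 under antibiotics was at 344, 601, 476, 217 and 576 CPM, with 1 library above the lowest untreated BA library, and gave -0.77 (standard error 0.26, adjusted p = 0.072), short of the threshold. DESeq2 called 6 of the 9 genes, the other 2 being Aqp8 (adjusted p = 0.0133) and Car1 (adjusted p = 0.039), both lower. It called 2971 of all 16680 genes tested. Car4 was at 188, 258, 239, 117 and 214 CPM and gave -0.39 (standard error 0.18, adjusted p = 0.161), and Slc5a8 was at 91.4, 78.1, 53.5, 65.6 and 64.2 CPM and gave -0.43 (standard error 0.20, adjusted p = 0.174). Car1 (23250.0, 21223, 15403, 19829.9 and 19524 CPM) gave -0.23 (standard error 0.10, adjusted p = 0.151) by edgeR. Scnn1a (49.7, 53.8, 41.5, 67.0 and 59.2 CPM) gave 0.19 (standard error 0.15, adjusted p = 0.404). For these 5 genes the ranges with and without antibiotics overlapped, and Slc5a8 passed only without BA library 2 (-0.56).

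Against WT, 8 of 10 genes were called lower in antibiotic-treated BA colon and 0 higher, beside 17.8% of genes called lower and 21.8% higher. Car1 (log2 fold change -0.15, standard error 0.13) and Scnn1a (log2 fold change -0.36, standard error 0.14) were the 2 not called, although Scnn1a was called without antibiotic library 4 or WT library 1 (-0.47 and -0.48). The log2 fold changes of the others were -0.91 for Car4, -2.11 for Slc26a3, -3.64 for Slc9a3, -1.28 for Aqp8, -1.27 for Slc5a8, -1.32 for Slc16a1 and -6.58 for Slc37a2. The summed epithelial markers were at 16510 to 25620 CPM, and antibiotic library 3 stood apart with summed fibroblast markers of 7391 CPM.

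Sulindac-treated A mice were compared with untreated A mice at d30, after sulindac had been withdrawn. No gene at all was called in edgeR's quasi-likelihood test (0.0% lower and 0.0% higher of 17568 tested), and at an unadjusted p under 0.05 there were 460 genes, 1 of them among the 10 (Slc9a3), while DESeq2 called 5 genes and 0 of the 10. Slc9a3 was at 127, 266, 128 and 179 CPM with sulindac against 75.2, 52.7, 136 and 122 CPM without, which gave 0.87 (standard error 0.33, adjusted p = 1). The sulindac libraries were uneven. Library 2 held the lowest Car1 (11774 CPM), Slc37a2 (87.2 CPM) and Slc26a3 (394 CPM) of the group, and library 4 held S100g at 182 CPM against 20.9 to 27.6 CPM in the others.

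Other sulindac values lay within the spread of the A libraries or overlapped it. Slc37a2 was at 744, 87.2, 391 and 985 CPM (log2 fold change -0.54, standard error 0.57, adjusted p = 1), Slc26a3 at 1268, 394, 583 and 1417 CPM (log2 fold change 0.26, standard error 0.40, adjusted p = 1) and Aqp8 at 969, 417, 417 and 1075 CPM (log2 fold change -0.29, standard error 0.36, adjusted p = 1). Car4 was at 249, 350.3, 159 and 347 CPM, Slc5a8 at 161, 152, 87.7 and 165 CPM, Slc16a1 at 896, 299, 464 and 780.0 CPM and Scnn1a at 64.4, 55.1, 40.5 and 57.9 CPM. Against WT, sulindac-treated A colon had 0 of 10 genes called by edgeR (background 0.0% lower and 0.0507% higher), 0 at an unadjusted p under 0.05 and 0 by DESeq2; over all genes these counts were 1607 and 111. The log2 fold changes against WT ran from -1.42 (Slc37a2) to 1.01 (S100g), and those of untreated A from -0.86 (Slc37a2) to -0.091 (Car1).

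**Figure D3:**
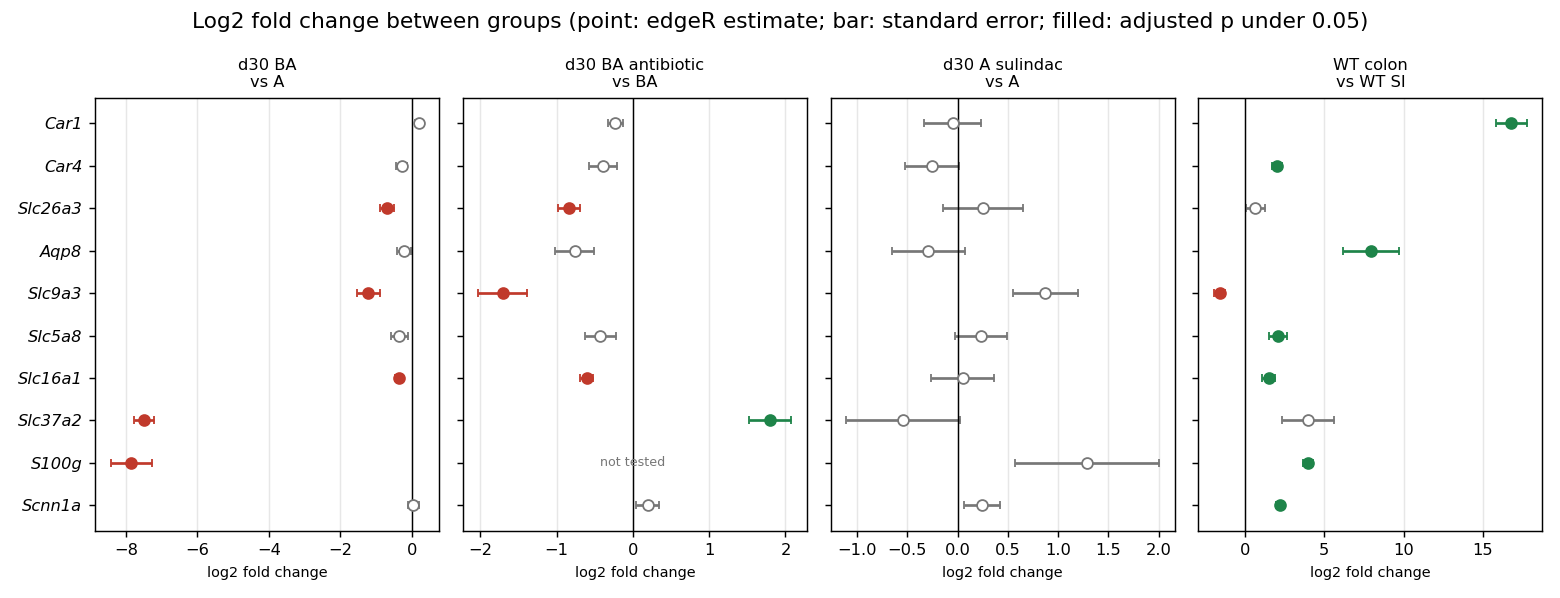
Log2 fold changes of the 10 genes in the 4 comparisons that did not use the WT of the same tissue, with bars of 1 standard error and filled points for an adjusted p under 0.05 (edgeR). Under antibiotics Slc37a2 lies right of 0 and Slc9a3 farthest left, and in the sulindac panel no point is filled.

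BA tumours were compared with WT colon. Car4, Slc26a3, S100g and Scnn1a were called lower and 0 of the 10 higher, beside 5.71% of 19188 genes lower and 7.46% higher. All 10 log2 fold changes were negative, with a median of -2.21 against 0.029 over all genes. DESeq2 called 6 of the 10 and 3798 of all 19188 genes tested. The WT colon libraries differed widely among themselves.

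S100g was at 59.6, 39.9 and 46.3 CPM in WT colon and at 0.316, 1.18, 0.510 and 0.324 CPM in BA tumours, on 7, 11, 9 and 8 reads. Every tumour lay far below every WT library. The summed level was 108 times higher in WT (95% counting interval 77.2 to 155).

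Car4 was at 164, 119.9 and 66.0 CPM in WT colon and at 27.3, 3.23, 11.0 and 8.63 CPM in tumours, with no overlap and a log2 difference of -3.26 (standard error 0.59), or -3.91 without tumour 1. Car1 was at 11823, 23854 and 15799 CPM in WT colon and 3133, 1043, 5020.3 and 4186 CPM in tumours. Its groups did not overlap either, yet its log2 fold change of -2.37 (standard error 0.72) was not called by edgeR. It was called by DESeq2, and by edgeR without tumour 2 (-2.09).

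Slc26a3 was at 121, 527 and 90.5 CPM in WT colon and 56.7, 17.9, 66.0 and 42.2 CPM in tumours (log2 fold change -2.44, standard error 0.63). Without WT library 2, the highest, its log2 fold change was -1.26 and not called, and the call was also lost without WT library 1 or tumour 1, 3 or 4. Scnn1a was at 20.1, 28.0 and 26.2 CPM in WT colon and 17.0, 11.5, 6.91 and 7.70 CPM in tumours (log2 fold change -1.23, standard error 0.30), and its call was lost when any of 5 libraries was left out (tumour 3 or 4, or any WT library), with values from -1.08 to -1.37. Both genes had all tumours below all WT libraries.

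WT library 2 alone set the direction for Slc37a2 and Aqp8. Slc37a2 was at 3.49, 409 and 4.26 CPM in WT colon and 11.8, 16.6, 17.2 and 19.6 CPM in tumours. Its log2 fold change was -3.08 (standard error 1.33) with all libraries and 2.04, called higher in tumours, without WT library 2. Aqp8 was at 27.0, 395 and 6.72 CPM and 56.0, 3.34, 20.3 and 59.9 CPM, with -2.05 (standard error 1.21) and, without that library, 0.98; neither was called.

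The other 3 genes overlapped between tumours and WT colon. Slc9a3 was at 84.7, 63.1 and 40.0 CPM in WT and 16.1, 28.9, 42.8 and 20.5 CPM in tumours (log2 fold change -1.22, standard error 0.38), and was called lower without tumour 3 (-1.55) and by DESeq2. Slc5a8 was at 115, 115 and 113 and 123, 17.8, 183 and 120.3 CPM (log2 fold change -0.065, standard error 0.57), its low mean in tumours resting on tumour 2. Slc16a1 was at 166, 562 and 229.5 and 160.2, 88.4, 204 and 161 CPM (log2 fold change -1.07, standard error 0.43), and without WT library 2 the log2 fold change was -0.40. The tumours held more fibroblast markers (4432 to 5309 against 1473 to 2462 CPM) and immune markers (189 to 254 against 78.0 to 140.1 CPM) than WT colon, while the epithelial sums overlapped (9269 to 14140 against 10330 to 13120 CPM). Gm13394 was over 10 CPM in 3 of 4 tumours and 0 of 3 WT colon libraries, and the male gene Ddx3y likewise, and their part in these differences was not tested.

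WT colon was compared with WT small intestine to set the tissue background of the genes. Of the 10, 7 were higher in colon and Slc9a3 was lower, and 27.6% of 19829 genes were called lower in colon and 29.9% higher. Genetic background differed between these groups as well, and Gm13394 and Ddx3y were each over 10 CPM in 0 of 3 colon and 3 of 3 small intestine libraries. None of these can be told apart from the tissue. The WT colon libraries are those used for the tumours.

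Car1 stood at 0.412, 0.0557 and 0 CPM in WT small intestine, on 9 reads in all, and at 11823 CPM or more in each WT colon library. The summed level was 102000 times higher in colon (95% counting interval 53500 to 222000), and edgeR's adjusted p was 2.15e-05. Aqp8 was at 1.39, 0.334 and 0.108 CPM in small intestine and was higher in all 3 colon libraries, at 27.0, 395 and 6.72 CPM (log2 fold change 7.94, standard error 1.74, adjusted p = 0.00597). Without WT colon library 2 its log2 fold change was 4.95 and without WT small intestine library 1 it was 9.41, both called. S100g was at 2.42, 2.79 and 4.96 CPM in small intestine (log2 fold change 3.98, standard error 0.31, adjusted p = 7.92e-05).

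Smaller differences in the same direction were found for Scnn1a (log2 fold change 2.21, standard error 0.25, adjusted p = 0.000341), Slc5a8 (log2 fold change 2.06, standard error 0.57, adjusted p = 0.0156), Car4 (log2 fold change 2.00, standard error 0.31, adjusted p = 0.00127) and Slc16a1 (log2 fold change 1.48, standard error 0.40, adjusted p = 0.014), the last not called without WT small intestine library 3 (1.40). Without WT colon library 2 Slc16a1 gave 0.83, and without WT small intestine library 2 Slc5a8 gave 3.19, both called. In small intestine their levels were 5.82, 4.13 and 7.61 CPM for Scnn1a, 14.9, 63.3 and 12.7 CPM for Slc5a8, 31.7, 32.4 and 32.6 CPM for Car4 and 122, 134 and 117 CPM for Slc16a1. Slc9a3 was at 154, 300.1 and 182 CPM in small intestine and was lower in colon (log2 fold change -1.62, standard error 0.34, adjusted p = 0.00495). Slc26a3 (178, 169 and 166 CPM in small intestine, log2 fold change 0.65, standard error 0.58, adjusted p = 0.364) and Slc37a2 (9.94, 7.92 and 10.4 CPM, log2 fold change 3.98, standard error 1.64, adjusted p = 0.0682) did not pass. Without WT colon library 2 both turned, to -0.51 and -1.11, and were called lower in colon, while without WT colon library 1 or 3 Slc37a2 was called higher (4.53 and 4.57).

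**Figure D4:**
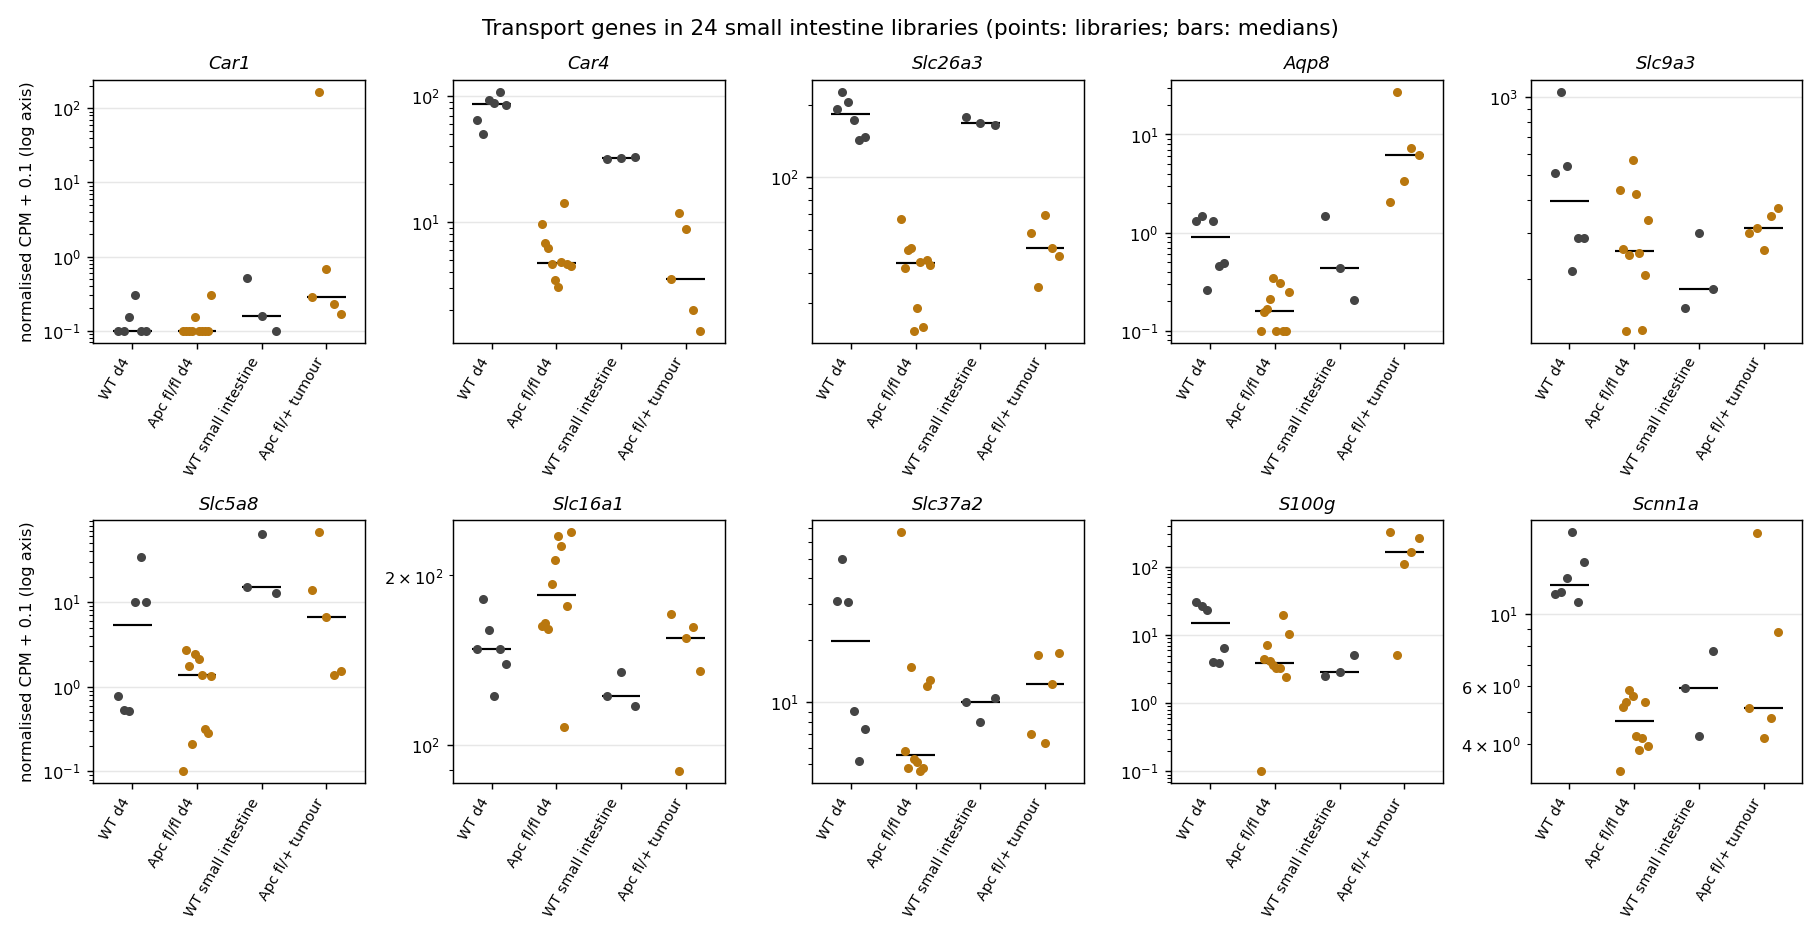
Levels of the 10 genes in each small intestinal library, as normalised CPM plus 0.1 on log axes with a separate scale per gene; each point is 1 library and each bar the group median. S100g of 4 Apc fl/+ tumours lies far above WT, Car4 and Slc26a3 lie below WT in both Apc groups, and tumour library 2 alone holds Car1 in quantity.

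Day 4 after loss of both Apc copies, 4 of 8 genes tested were called lower than in WT (Car4, Slc26a3, Slc5a8 and Scnn1a) and 1 higher (Slc16a1), beside 26.7% of 17536 genes lower and 27.5% higher. Car1, at 0.201 CPM or less, and Aqp8, at 0.159 to 1.37 CPM in WT and 0 to 0.244 CPM in Apc fl/fl, were too low to test. Car4 ranged over 49.96 to 108 (median 86.3) CPM in 6 WT libraries and 2.93 to 14.0 (median 4.63) CPM in 10 Apc fl/fl libraries, and Slc26a3 over 142 to 227 (median 183) and 22.8 to 66.9 (median 43.7) CPM. For both the groups did not overlap, with log2 fold changes of -3.80 (standard error 0.32) and -2.13 (standard error 0.19).

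Scnn1a ranged over 10.8 to 17.8 (median 12.2) CPM in WT and 3.18 to 5.73 (median 4.59) CPM in Apc fl/fl, also without overlap (log2 fold change -1.47, standard error 0.15). Slc5a8 was low throughout, at 0.423 to 34.4 (median 5.27) and 0 to 2.65 (median 1.27) CPM, and its value of -2.84 (standard error 0.82) was not called without WT library 5 (-1.70). Slc16a1 was at 122 to 181 (median 148) CPM in WT and 107 to 239 (median 185) CPM in Apc fl/fl, overlapping. Its value of 0.34 (standard error 0.13) lost its call when any of 7 libraries was left out (Apc fl/fl 6, 7 or 10, WT 1, 4, 5 or 6; 0.29 to 0.35).

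The day 4 libraries split by Gm13394, with WT 1 to 3 and Apc fl/fl 1 to 4 under 10 CPM and the rest over, and 3 genes gave values of opposite sign within the 2 sets. S100g was at 30.06, 27.0, 23.0, 3.96, 3.74 and 6.44 CPM in the 6 WT libraries and at 0 to 19.3 (median 3.83) CPM in Apc fl/fl. Its log2 fold change was -1.30 (standard error 0.55) over all libraries, -2.40 among those under 10 CPM of Gm13394 and 0.59 among those over. It was not called over all libraries and was called without Apc fl/fl library 8 or 10 or WT library 4, 5 or 6 (-1.41 to -1.77). Slc37a2 was at 31.0, 49.4, 30.7, 8.99, 5.06 and 7.29 CPM in WT and 4.52 to 66.9 (median 5.45) CPM in Apc fl/fl, and gave -1.05 (standard error 0.61), or -1.51 and called lower without the shallow Apc fl/fl library 1, with -1.59 and 0.051 within the 2 sets. Slc9a3 was at 215 to 1045 (median 397) CPM in WT and 126 to 570.0 (median 255) CPM in Apc fl/fl, and gave -0.66 (standard error 0.35), with -1.34 and 0.25. Car4 was called lower within both sets (-3.51 and -4.06), as was Slc26a3 (-2.03 and -2.17). Enterocyte markers were lower too, with all 6 tested called lower and sums of 3444 to 9868 CPM against 16590 to 30810 CPM in WT.

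Apc fl/+ tumours had 5 of 9 genes tested called against WT small intestine, beside 61.5% of 20567 genes called in either direction: Car4 and Slc26a3 were lower, and S100g, Aqp8 and Slc9a3 were higher. S100g was at 321, 5.01, 111, 168 and 263 CPM in the tumours and at 2.42, 2.79 and 4.96 CPM in WT. Every tumour was above every WT library, although tumour 2 was only just so. The log2 fold change was 5.78 (standard error 1.21) over all tumours and 6.09 without tumour 2.

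Car4 was at 3.43, 11.6, 8.69, 1.90 and 1.26 CPM in the tumours, below the 31.7 to 32.6 CPM of WT, and Slc26a3 at 58.3, 34.6, 69.1, 50.4 and 46.7 CPM, below 166 to 178 CPM. Their log2 fold changes were -2.49 (standard error 0.63) and -1.62 (standard error 0.19). Aqp8 was at 1.93, 27.2, 3.25, 7.16 and 6.07 CPM in the tumours (log2 fold change 3.97, standard error 1.10), and without tumour 2 the value was 3.00, still called. Without WT library 2 it was 3.70 and not called, and without WT library 1 it was 5.43. Slc9a3 was at 300.1, 314, 258, 349 and 374 CPM, overlapping WT (log2 fold change 0.69, standard error 0.23), and lost its call without tumour 4 or 5 or WT library 1 or 3 (0.51 to 0.65).

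Slc5a8 was at 13.7, 66.7, 6.55, 1.28 and 1.43 CPM in the tumours (log2 fold change -0.67, standard error 1.19), and at -2.31, called lower, without tumour 2. Slc16a1 was at 171, 89.5, 155, 162 and 135 CPM (log2 fold change 0.30, standard error 0.20), and without tumour 2 it was called higher (0.43). Slc37a2 (6.96, 16.8, 6.24, 12.1 and 17.3 CPM, log2 fold change 0.44, standard error 0.36) and Scnn1a (5.03, 17.7, 4.05, 4.69 and 8.73 CPM, log2 fold change 0.55, standard error 0.50) overlapped WT, and Scnn1a gave 0.053 without tumour 2. Car1 was at 0.188, 167, 0.579, 0.133 and 0.0682 CPM, the value of 167 CPM belonging to the library that went against its label. Summed enterocyte markers were at 37.2 to 9480 CPM against 14500 to 26080 CPM in WT, and Gm13394 was over 10 CPM in 3 of 3 WT and 0 of 5 tumour libraries, which cannot be told apart from the genotype. Ddx3y was over 10 CPM in 3 of 3 WT and 1 of 5 tumour libraries, and its part in these differences was not tested.

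Another 63 transport genes, chosen by function in 9 lists with earlier results of these data known, were set beside the 10. Their adjusted p-values are therefore given as a description and not as independent tests. In BA colon at d30, 29 of 55 tested were lower than in WT and 7 higher (percentages over all genes as above), with a median log2 fold change of -0.29. The largest called changes were in Slc16a3, the lactate exporter MCT4, which rose to 74.6 ± 15.7 against 6.69 ± 1.14 CPM in WT (log2 fold change 3.47, standard error 0.18, adjusted p = 1.06e-07), and in Car3, a muscle and fat carbonic anhydrase, which fell (log2 fold change -3.17, standard error 1.06, adjusted p = 0.0245). Car3 was uneven between WT libraries, at 21.2 ± 36.8 CPM in WT and 2.37 ± 1.90 CPM in BA (mean and SD). Sgk1, the kinase through which aldosterone raises ENaC, fell (log2 fold change -2.38, standard error 0.30, adjusted p = 5.61e-05), as did Aqp1, the vascular water channel (log2 fold change -1.55, standard error 0.13, adjusted p = 2.27e-06). Kcnn4, a calcium-activated potassium channel that drives chloride secretion, rose (log2 fold change 1.60, standard error 0.098, adjusted p = 2.94e-07).

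By list, 6 of 10 tested exchange genes, 5 of 8 other carbonic anhydrases, 4 of 8 monocarboxylate genes, 5 of 7 chloride and potassium channel genes and 3 of 5 sodium pump genes were lower in BA than in WT at d30. Higher were 2, 1, 1, 1 and 0 of those lists. Of 7 genes of the sodium channel list 3 were lower and 1 higher, and of 4 calcium absorption genes 2 were lower. Of 3 other aquaporins tested 1 was lower and 0 higher, and of 3 other sugar phosphate transporters 0 were lower and 1 higher. Against A, 22 of 55 other transport genes were lower in BA and 10 higher, beside 23.6% and 21.7% of all genes tested. Slc16a3 rose there too (log2 fold change 2.40, standard error 0.41, adjusted p = 0.000754), while Hsd11b2, which shields the mineralocorticoid receptor from glucocorticoid, fell (log2 fold change -1.87, standard error 0.14, adjusted p = 3.28e-06), as did Scnn1b, the beta subunit of ENaC (log2 fold change -2.26, standard error 0.29, adjusted p = 0.000114), Car3 (log2 fold change -3.88, standard error 0.83, adjusted p = 0.00311) and Aqp1 (log2 fold change -1.74, standard error 0.19, adjusted p = 4.77e-05). Car3 was uneven in A too, at 36.1 ± 35.5 CPM (mean and SD). In A against WT 0 of 56 were called by edgeR (11 at an unadjusted p under 0.05, 1 by DESeq2), and in sulindac-treated A against WT also 0 of 56 (10 and 1).

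Under antibiotics 10 of 54 other transport genes were lower than in untreated BA and 6 higher, beside 8.5% and 4.53% of all genes tested. The beta and gamma subunits of ENaC rose, Scnn1b by 1.05 (standard error 0.23, adjusted p = 0.0134) and Scnn1g by 1.86 (standard error 0.36, adjusted p = 0.00742), as did Aqp1 (log2 fold change 0.90, standard error 0.19, adjusted p = 0.0109) and Hsd11b2 (log2 fold change 0.60, standard error 0.12, adjusted p = 0.00887). Car12, an extracellular carbonic anhydrase, and the aquaporin Aqp11 fell (log2 fold change -0.75, standard error 0.092, adjusted p = 0.000765 and -0.89, standard error 0.13, adjusted p = 0.00155). Against WT, 28 of 56 were lower and 6 higher in the antibiotic group, led by Slc16a3 (log2 fold change 2.93, standard error 0.12, adjusted p = 1.17e-07), Sgk1 (log2 fold change -1.85, standard error 0.34, adjusted p = 0.00171) and Kcnn4 (log2 fold change 1.67, standard error 0.12, adjusted p = 5.04e-06). Over all genes 17.8% were lower and 21.8% higher in the antibiotic group against WT. Sulindac against untreated A gave 0 of 55 by edgeR, 3 at an unadjusted p under 0.05 and 0 by DESeq2.

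**Figure D5:**
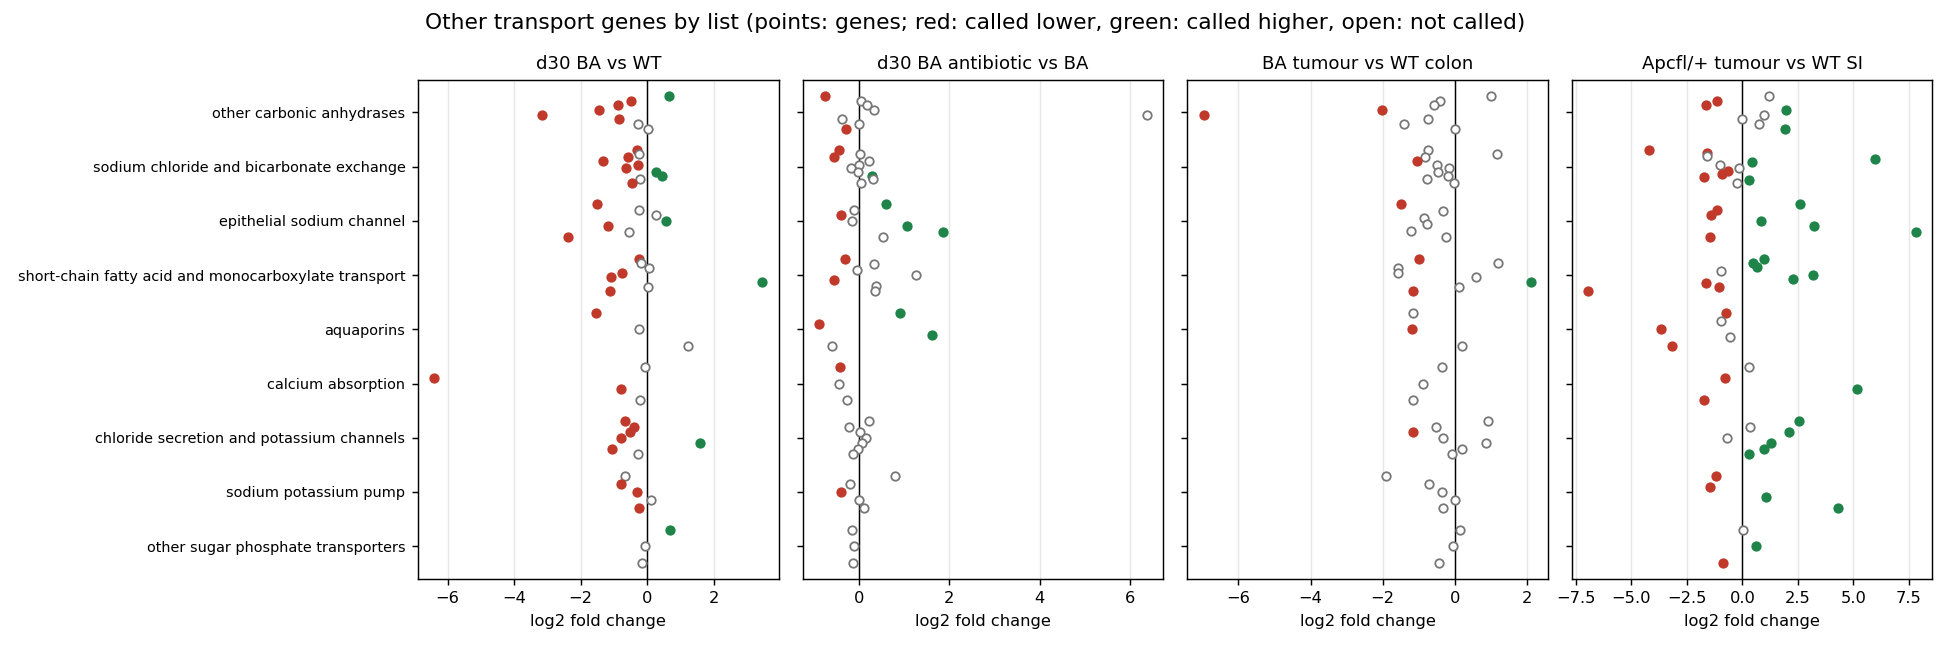
Log2 fold changes of the tested genes of 9 other transport lists in 4 comparisons, 1 row per list; each point is 1 gene and filled points passed an adjusted p of 0.05 (edgeR). In BA at d30 most filled points lie left of 0, and Slc16a3 of the monocarboxylate list lies at 3.47.

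In BA tumours 8 of 53 other transport genes were lower than in WT colon and 1, Slc16a3, was higher (log2 fold change 2.14, standard error 0.24, adjusted p = 0.00179), as in BA at d30. The largest decreases were in Car3 (log2 fold change -6.97, standard error 1.01, adjusted p = 0.00402), Car2, the abundant cytosolic carbonic anhydrase (log2 fold change -2.03, standard error 0.38, adjusted p = 0.0111), Hsd11b2 (log2 fold change -1.50, standard error 0.41, adjusted p = 0.042) and Aqp11 (log2 fold change -1.19, standard error 0.18, adjusted p = 0.00484). Car3 was at 30.9 ± 29.7 CPM in WT colon and 0.239 ± 0.0241 CPM in tumours (mean and SD), with a wide spread in WT colon. DESeq2 called 18 of the 53 and 3798 of all genes tested. In Apc fl/fl small intestine 24 of 52 were lower and 10 higher, 9 of 11 exchange genes being lower, with Pdzk1, the scaffold of apical transporters, at -1.80 (standard error 0.24, adjusted p = 1.23e-05) and Slc12a2, the basolateral chloride loader of secretory cells, at 1.81 (standard error 0.18, adjusted p = 1.11e-06). In Apc fl/+ tumours 21 of 59 were lower and 23 higher, with the calcium channel Trpv6 at 5.15 (standard error 1.57, adjusted p = 0.0191), the vitamin D receptor Vdr at -1.73 (standard error 0.32, adjusted p = 0.00171) and the lactate importer Slc5a12 at -6.94 (standard error 1.04, adjusted p = 0.0006). Of WT colon against small intestine, 22 of 56 were higher and 12 lower, led by Slc5a12 (log2 fold change -10.67, standard error 0.47, adjusted p = 7.13e-06). Over all genes 29.9% were higher and 27.6% lower there. In BA tumours 5.71% of all genes were lower and 7.46% higher, and in Apc fl/fl 26.7% and 27.5%. In Apc fl/+ tumours 61.5% of all genes were called in either direction.

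Across the 29 colon libraries the members did not vary as 1 block. Slc26a3 and Slc16a1 were most alike (Pearson r = 0.967 on log2 levels), Car1 and Car4 gave 0.895, Slc9a3 and S100g 0.767, Slc37a2 and S100g 0.743, and Aqp8 and S100g were least alike (0.124). Outside the 10, the genes whose log2 levels ran closest to the mean of the standardised members, of 12173 candidates, were Abcb6 (r = 0.966), Pla2g3 (0.957), Sgk2 (0.955), Ces2e (0.952) and Stard5 (0.950). Pla2g3, a secreted phospholipase, was at a mean of 106.5 CPM in WT and 18.3 CPM in BA at d30, and at 27.5 CPM in WT colon and 4.62 CPM in BA tumours. These correlations describe the 29 libraries, which share groups, tissue make-up and sequencing series, and carry no test.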

How the data were processed

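The deposited file holds raw counts per Ensembl gene, which the authors made from paired 36-base reads of whole mouse intestine with Trim Galore 0.6.4 after FastQC 0.11.8, HISAT2 2.1.0 on GRCm38 and featureCounts 1.6.4, with 1 column per library; the strand and multi-mapping settings are not given in the sources used here. Reads shared by overlapping or near-identical genes can therefore not be told apart where named. All 53 columns matched a sample by title, 0 columns were left out, and 0 pairs of libraries held identical values. Replicates came from different mice.

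The counts were analysed with edgeR 4.0.16 in R 4.3.3 (filterByExpr, TMM normalisation, the quasi-likelihood test on the 2 groups of each comparison, two-sided) with Benjamini-Hochberg adjustment over all genes tested and a threshold of 0.05, where the study used DESeq2, here run in version 1.42.0 as an alternative. The other alternatives were no filter on low counts, RLE size factors in place of TMM and all day 30 groups in 1 fit. The replicate number as a block, each library left out in turn and levels scaled by library totals were also run. Models with Gm13394 as a term or within its 2 sets, and without Apc fl/fl libraries 1 and 8, were added after seeing the data. Tested on simulated counts, the fits recovered between 63.5% (BA tumour against WT colon, 19188 genes) and 99.5% (BA against A at day 30, 17128 genes) of 200 genes changed by 2 on the log2 scale, and 3.78% to 7.62% of calls fell on unchanged genes. The changed genes were drawn from well-counted ones, up or down, and all other genes were left unchanged. The rates therefore do not cover low genes such as S100g in BA, smaller changes or comparisons where many genes differed. Totals of 516985 to 32824795 reads set the precision of the levels. A summed ratio has an exact 95% binomial interval.

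The members and all gene lists were chosen with earlier results of these data known. Text names every member, any gene of the lists (first the 5 called other transport genes with the largest absolute log2 fold change and an average log2 CPM of at least 1), Braf, Tgfbr1 and Apc, and the 5 genes most like the members' mean pattern by Pearson correlation of log2 levels among genes with a mean of at least 5 CPM. Gm13394, Gm5843, Gm48081 and Ddx3y were named after their values were seen. Python 3.11.15 and pandas 2.3.3 made the tables. 1 colon marker gene is not reported here.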

Additional observations from a re-analysis of the deposited data

Results flagged for a closer look

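In groups of 4 to 10 libraries, 12 of 88 gene and group combinations held 1 library far from the others by Dixon's gap test, where chance gives about 1 in 20. Library 2 of the Apc fl/+ tumours, the one that went against its small intestinal label, stood alone for Car1 (167 CPM), Aqp8 (27.2 CPM) and Slc5a8 (66.7 CPM). Its colon markers were mixed, with Hoxa10 at 46.4 CPM but Hoxd10 at 0.186 CPM, against 4.40 to 9.11 CPM of Hoxd10 in WT colon. In the d30 colon the lone libraries were WT library 3 for Slc26a3 (1631 CPM), WT library 1 for Scnn1a (52.8 CPM), sulindac library 3 for Slc5a8 (87.7 CPM), sulindac library 4 for S100g (181.6 CPM), antibiotic library 4 for Slc37a2 (28.7 CPM) and BA library 5 for S100g (0.303 CPM, on 5 reads). At day 4 in the small intestine they were WT library 5 for Slc5a8 (34.4 CPM), Apc fl/fl library 1 for Slc37a2 (66.9 CPM), the shallowest library of all, and Apc fl/fl library 10 for Car1 (0.198 CPM).

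S100g moved in opposite directions in the 2 kinds of tumour. Its log2 fold change was -6.56 in BA tumours against WT colon, with every tumour below every WT library. It was 5.78 in Apc fl/+ tumours against WT small intestine, with every tumour above every WT library. Apc fl/+ tumour 2, the library that went against its label, was only just above, at 5.01 CPM against 4.96 CPM in the highest WT library. The difference between the 2 kinds of tumour was not tested.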

How the results depend on the processing

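Over all alternatives that were run, 1347 log2 fold changes of the 10 genes kept their direction and side of the threshold, 49 lost a call, 32 gained one and 26 changed direction, and the cause of those changes was not tested. The comparison of BA tumours with WT colon moved most. Over all genes its main fit called 2527, DESeq2 3798, the unfiltered fit 3313 and the replicate block 848. Of the 10 genes 8 were called without the low-count filter, 2 with the replicate block and 2 to 5 with 1 library left out, against 4; of the other transport genes DESeq2 called 18, the unfiltered fit 17, the replicate block 2 and the fits without 1 library 4 to 12, against 9. Antibiotic-treated against untreated BA gave 2 of the 10 genes and 8 other transport genes when all d30 groups shared 1 fit, against 4 and 16. In Apc fl/+ tumours the replicate block called 2 of the 10 against 5. For A against WT, where 0 other transport genes were called, DESeq2, the shared d30 fit and the replicate block called 1 each and the unfiltered fit 2; for sulindac-treated A against WT DESeq2 and the shared fit called 1 each. Car4 and Aqp8 of BA against WT at d30 lost their calls in the shared fit (-0.52 for both). The filter, depth and 3 to 10 libraries a group limit what low genes such as S100g in BA can show.

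Replicate numbers are shared between groups, but their deviations did not pair all libraries of any comparison. In 0 of 11 comparisons did every pair of equal numbers correlate above 0.1, with values from -0.473 to 0.28. Every library correlated best with its own number in 0 comparisons, and 0 to 2 libraries did so per comparison, among 3 to 6 pairs. With the replicate block Slc37a2 turned to 0.29 in BA tumours and Slc16a1 to -0.079 under sulindac against A.

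Directions also changed when 1 library was left out, and the ranges of log2 fold changes over those fits were as follows. In BA tumours against WT colon they were -2.59 to 0.98 for Aqp8, -0.45 to 0.28 for Slc5a8 and -3.67 to 2.04 for Slc37a2, where WT library 2 set the sign of Aqp8 and Slc37a2 and tumour 2 that of Slc5a8. Against WT at d30 they were -0.53 to 0.024 for S100g in A, and -0.28 to 0.041 for Car1, -0.10 to 0.70 for Slc9a3 and -0.39 to 1.30 for S100g in sulindac-treated A. Sulindac against untreated A gave -0.16 to 0.12 for Car1, -0.043 to 0.49 for Slc26a3, -0.21 to 0.26 for Slc16a1 and -0.14 to 1.57 for S100g. BA against A gave -0.35 to 0.016 for Aqp8 and -0.037 to 0.19 for Scnn1a. Slc5a8 in Apc fl/+ tumours ran over -2.31 to 0.48, and WT colon against small intestine gave -0.51 to 1.06 for Slc26a3 and -1.11 to 4.57 for Slc37a2.

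Among day 4 libraries over 10 CPM of Gm13394, a split chosen after seeing the data, Apc fl/fl against WT gave 0.25 for Slc9a3, 0.051 for Slc37a2 and 0.59 for S100g, all positive where the fit over all libraries was negative.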
